A study of Mus musculus with 8 samples.

Results

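The PGC-1 coactivators, the PPAR and ERR nuclear receptors, the receptor RXR alpha and the nuclear respiratory factor NRF1 were followed in brown fat, the tissue that burns fuel for heat, of mice from 2 diet groups. The 10 genes Ppargc1a, Ppargc1b, Pprc1, Ppara, Ppard, Pparg, Esrra, Esrrg, Nrf1 and Rxra were matched by their symbols. They were picked for their roles, with earlier results of these data known. All 10 were measured, among 21759 genes in all. Total RNA of the tissue, from male mice of strain C57BL/6, was measured on 8 microarrays (Affymetrix Mouse Gene 1.0 ST), which read each gene through probes along its length, summed up as a transcript cluster. Of these, 4 arrays came from mice on a high-fat diet (HFD) and 4 from a group named NCD, an abbreviation left unexplained in the labels. The study asked what the high-fat diet does to gene expression in this depot. Neither group is labelled with a transgene, drug or housing temperature, and age and feeding time are not stated. Whether each array stands for a different animal is not stated either, so p-values here reflect the spread between samples, which may be technical.

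The 3 PGC-1 proteins bind no DNA of their own and raise transcription through factors that do. Among these are the PPARs, which sense fatty acids and bind DNA as dimers with RXRs, the ERRs, which act on genes of mitochondrial energy use, and NRF1, which acts on genes of the respiratory chain and of mitochondrial DNA upkeep. In brown fat, PGC-1 alpha is induced by cold through cyclic AMP and takes part in the induction of the uncoupling protein gene Ucp1, while PPAR gamma is required to form fat cells.

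None of the 10 genes passed the test for diet. Their mean levels in HFD arrays lay between 0.29 below and 0.10 above those in NCD arrays on the log2 scale. The largest differences were those of the coactivators Ppargc1b, at -0.29, and Ppargc1a, at -0.19. At a Benjamini-Hochberg adjusted p of 0.05 in limma, a linear model with spreads moderated across genes, 0 of 10 members passed, where 31 of all genes did (0.142%), of which 29 were lower (0.133%) and 2 higher (0.00919%) in HFD. At an unadjusted p under 0.05, 0 members passed in limma, against 7.24% of all genes. The methods' t-test called 1 member at that level, Ppargc1a (against 6.96% of all genes), and 0 after adjustment. The groups overlapped for all 10 members, while they did not overlap for 3.83% of all genes. In whole tissue, fewer cells of a type and less RNA per cell cannot be told apart. Means were lower in HFD for 8 members and higher for 2, beside 52.5% of all genes that were lower. The median difference was -0.095 over the members and -0.01 over all genes. With the arrays rescaled to a common median and spread, Pparg turned to 0.03 and 7 members were lower, beside 55% of all genes. Without NCD 3 and NCD 2, the arrays of widest and next widest spread of values, 5 were lower, beside 53.7% of all genes, and the members' median was -0.0025. These arrays also had the highest means over the members (7.74 and 7.53). HFD 4, of nearly the same spread as NCD 2 (SD 1.78 against 1.79), was kept. Leaving out NCD 3 and NCD 2 thus lowered the members' NCD level by itself, and that fit is no neutral check.

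The number of arrays limited what could be called. A member would have needed a difference of 0.58 (Pparg) to 0.93 (Ppara) in size, that is 1.49-fold to 1.9-fold, to reach the p of the least certain of the 31 genes. The smallest difference among those 31 genes was 0.68 in size. The 95% intervals of the differences below show which sizes remain possible for each gene. Array medians ran from 5.91 to 5.99. The mean of 1119 olfactory receptor genes, which stand here for genes not expressed in fat, lay at or under 6.46 for 95% of them. Means over all 8 arrays lay above that level for 7 members and under it for Pprc1, Esrra and Nrf1, so a change in those 3 genes may be understated. Levels of different genes come from different probes and are not ranked against each other.

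**Figure D1:**
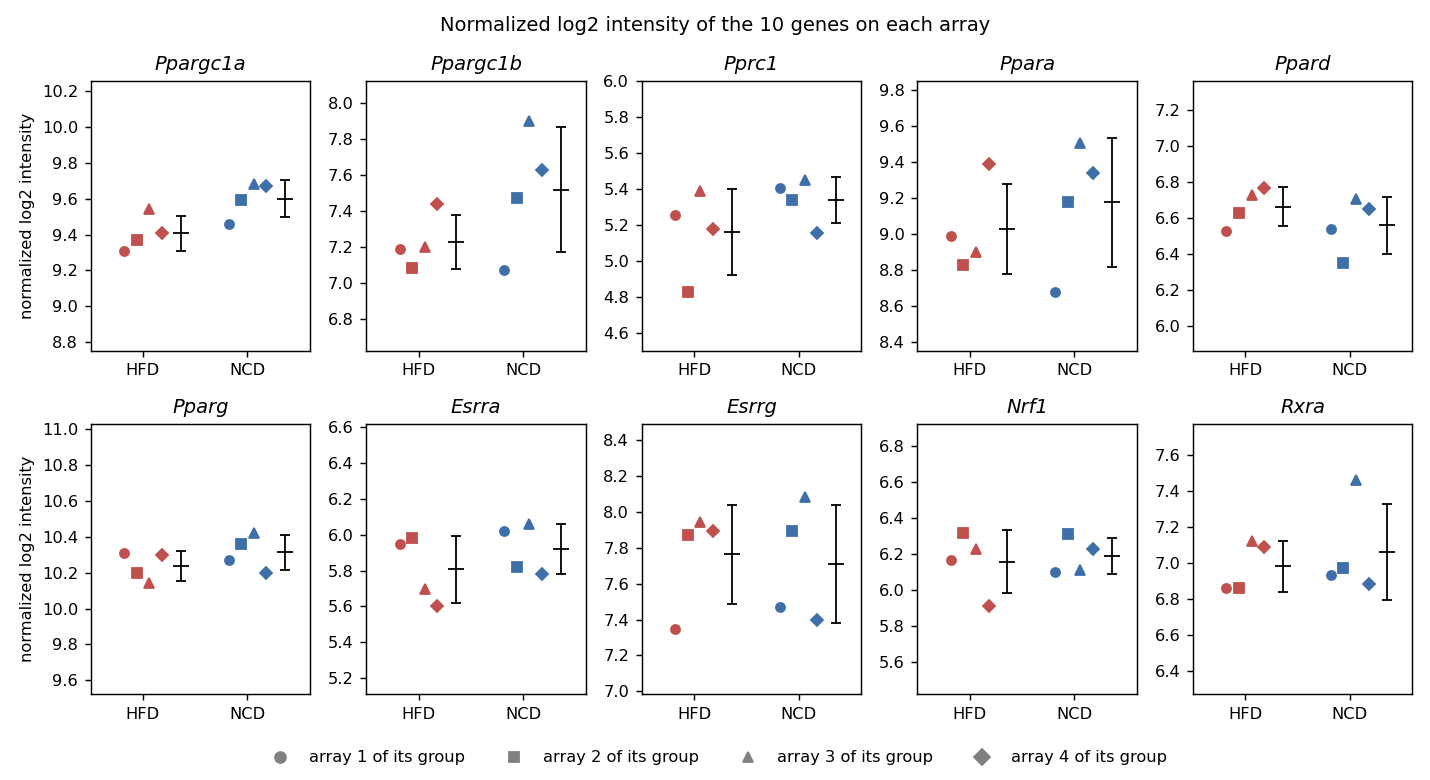
Normalized log2 intensity of each of the 10 genes on each array, with HFD arrays (red) left of NCD arrays (blue), point shapes giving the array's number within its group, and bars giving the group mean and SD over 4 arrays. Every panel spans the same log2 range, and in each the HFD and NCD points overlap.

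Ppargc1a encodes PGC-1 alpha, the coactivator of the cold response in brown fat. Its log2 level was 9.31, 9.37, 9.54 and 9.41 on HFD 1 to 4, against 9.46, 9.59, 9.68 and 9.67 on NCD 1 to 4. HFD 3 was the only HFD array above any NCD array, and it exceeded NCD 1 alone. The means were 9.41 ± 0.10 in HFD and 9.60 ± 0.10 in NCD (SD, n = 4 each), which puts HFD at -0.19 relative to NCD (95% interval -0.42 to 0.04, limma adjusted p = 0.767). That interval runs from a 1.34-fold lower to a 1.03-fold higher level in HFD. In the authors' deposited table this cluster has a p of 0.04 and a signed fold of -1.14. The cluster spans chromosome 5 from 51848876 to 51945100 on the minus strand in the file, which names no build; its exons were not mapped here. A second, dimmer cluster of the same symbol covers 333 bases of chromosome 5, from 51846926 to 51847258. On that cluster the log2 values were 7.50, 7.41, 7.42 and 7.46 on HFD 1 to 4, against 7.50, 7.91, 7.68 and 7.33 on NCD 1 to 4. There HFD arrays lay within the range of NCD arrays, and the difference was -0.16 with an interval from -0.43 to 0.11. The authors' deposited p for that second cluster is 0.3, with a signed fold of -1.12.

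Since cyclic AMP signalling acts on Ppargc1a in brown fat, the bases before a RefSeq start site of this gene are shown. The RefSeq start site window of assembly GRCm38.p6 was searched over the 250 bases before the start, on both strands, for the cyclic AMP response element, TGACGTCA, and for its first 6 letters, TGACGT, which the longer motif contains. The window held no match to the longer motif, which 1.55% of 32851 RefSeq windows hold, and 1 match to the shorter, which 6.47% hold. This covers only the 250 bases before the start shown. It says nothing of sequence farther away or before any other start of the gene. The match stands in capitals, as read on the gene's own strand, and begins 50 bases before the start. The sequence is chr5:51567726-51567975, minus strand, 5′ to 3′. A match of letters is no evidence of binding.
Ppargc1a: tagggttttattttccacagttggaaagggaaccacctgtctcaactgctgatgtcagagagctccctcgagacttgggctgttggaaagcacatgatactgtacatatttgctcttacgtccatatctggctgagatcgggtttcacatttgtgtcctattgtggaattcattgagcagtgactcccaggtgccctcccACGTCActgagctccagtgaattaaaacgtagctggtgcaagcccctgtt

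Ppargc1b encodes PGC-1 beta, a relative with a role in the basal mitochondrial content of brown fat. It stood at 7.19, 7.08, 7.20 and 7.44 on HFD 1 to 4, against 7.07, 7.47, 7.90 and 7.63 on NCD 1 to 4. NCD 1 was the lowest of all 8 arrays, while NCD 2, NCD 3 and NCD 4 lay above every HFD array. Group means were 7.23 ± 0.15 in HFD and 7.52 ± 0.35 in NCD (SD, n = 4 each). The difference was -0.29 with an interval from -0.62 to 0.04 (adjusted p = 0.743), which allows up to a 1.54-fold lower level in HFD. Leaving out NCD 3 gave -0.16 and leaving out NCD 1 gave -0.44, so the size rests on single NCD arrays. The cluster spans chromosome 18 from 61457790 to 61560085 in the file.

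Pprc1 encodes the PGC-1-related coactivator, known for its response to serum in cultured cells. Its values were 5.26, 4.83, 5.39 and 5.18 on HFD 1 to 4, against 5.41, 5.34, 5.45 and 5.16 on NCD 1 to 4. HFD 2 was the lowest array and the rest overlapped. The difference was -0.175 with an interval from -0.45 to 0.10 (adjusted p = 0.839), and -0.06 without HFD 2. All 8 values lay under the olfactory receptor level of 6.46.

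**Figure D2:**
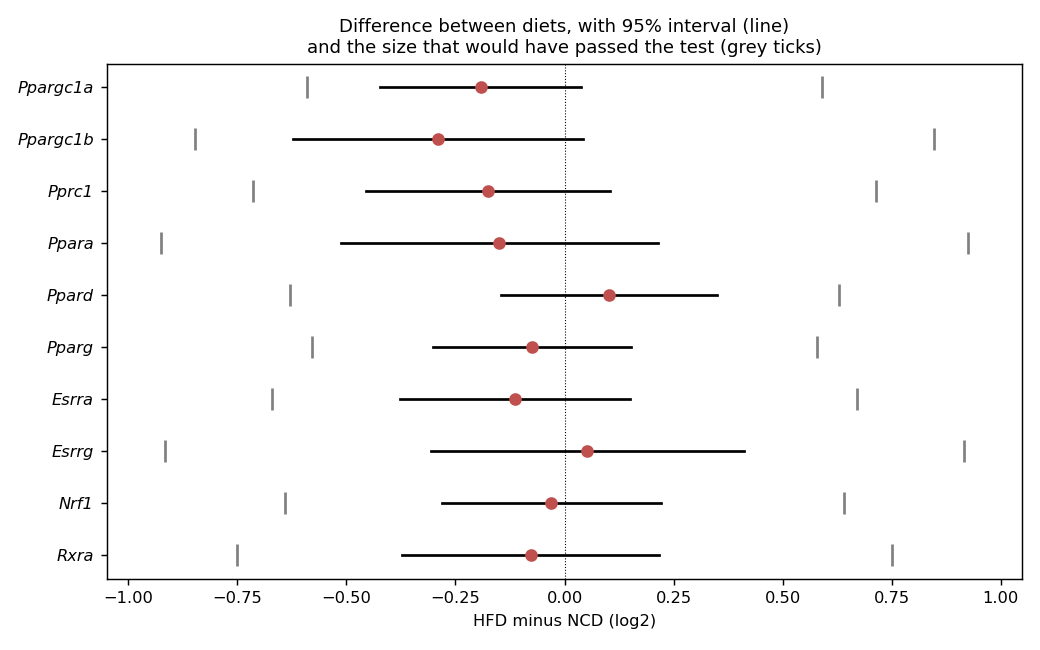
Difference in log2 level, HFD minus NCD, for each gene (point) with its 95% interval from limma (line), and the size of difference that would have reached the p of the least certain called gene (grey ticks). All 10 intervals cross 0 and none reaches a grey tick.

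Ppara encodes PPAR alpha, which drives fatty acid oxidation genes and is abundant in brown fat. Its log2 level was 8.99, 8.83, 8.90 and 9.39 on HFD 1 to 4, against 8.68, 9.18, 9.51 and 9.34 on NCD 1 to 4. HFD 4 stood among the high NCD arrays, and NCD 1 was the lowest of all. Means were 9.03 ± 0.25 in HFD and 9.18 ± 0.36 in NCD (SD, n = 4 each), and the difference of -0.15 had an interval from -0.51 to 0.21 (adjusted p = 0.898). It was -0.04 without NCD 3, -0.32 without NCD 1 and 0.02 without NCD 2 and NCD 3 together. The cluster spans chromosome 15 from 85566206 to 85633249 in the file.

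The start window of Ppara is shown because it was the only one of the members' windows searched that held the NRF1 motif. The NRF1 motif, which reads the same on both strands, occurred in 0.782% of the 32851 RefSeq windows. In Ppara it stands in capitals and begins 31 bases before the start of the gene, in chr15:85735526-85735775 of GRCm38.p6, plus strand.
Ppara: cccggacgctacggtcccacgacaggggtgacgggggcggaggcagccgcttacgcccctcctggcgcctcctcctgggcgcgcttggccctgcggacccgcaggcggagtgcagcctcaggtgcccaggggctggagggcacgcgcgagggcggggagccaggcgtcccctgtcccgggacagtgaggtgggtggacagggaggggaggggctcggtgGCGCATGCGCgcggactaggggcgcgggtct

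Ppard encodes PPAR delta, a widely expressed receptor that also acts on fatty acid oxidation. It was 6.53, 6.63, 6.73 and 6.77 on HFD 1 to 4, against 6.54, 6.35, 6.71 and 6.65 on NCD 1 to 4. Only NCD 2 stood below the HFD arrays. The difference, 0.10 with an interval from -0.14 to 0.35 (adjusted p = 0.898), was the highest of the 10 members, and it was 0.03 without NCD 2. Pparg encodes PPAR gamma, the receptor that forms and maintains fat cells. It was 10.31, 10.20, 10.14 and 10.30 on HFD 1 to 4, against 10.27, 10.36, 10.42 and 10.20 on NCD 1 to 4. Its arrays lay close together in both groups, with means of 10.24 ± 0.08 in HFD and 10.31 ± 0.10 in NCD (SD, n = 4 each). The difference of -0.075 had the smallest standard error of the members (0.107). Its interval, from -0.30 to 0.15 (adjusted p = 0.920), allows at most a 1.23-fold lower and a 1.11-fold higher level in HFD. With equal median and spread of the arrays the difference was 0.03.

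Esrra encodes ERR alpha, the receptor through which PGC-1 alpha acts on many respiratory chain genes. Its values were 5.95, 5.98, 5.70 and 5.60 on HFD 1 to 4, against 6.02, 5.82, 6.06 and 5.78 on NCD 1 to 4. HFD 3 and HFD 4 were lower than every NCD array, and HFD 1 and HFD 2 lay among them. The difference was -0.11 with an interval from -0.38 to 0.15 (adjusted p = 0.894) and -0.04 without HFD 4. All 8 values were under the level of 6.46 that bounds 95% of olfactory receptor genes.

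Esrrg encodes ERR gamma, a relative found in highly oxidative tissue. Its values fell into a low and a high set that did not follow the diet. They were 7.35, 7.87, 7.94 and 7.89 on HFD 1 to 4, against 7.47, 7.89, 8.08 and 7.40 on NCD 1 to 4. HFD 1, NCD 1 and NCD 4 formed the low set, at or under 7.47, and the other 5 arrays started at 7.87. The gap of 0.40 between the sets exceeded the next widest gap of 0.14. The arrays of the low set also had the narrowest spread of values over all clusters (SD 1.6928, 1.6998 and 1.7022). HFD 2, of the high set, was nearly as narrow (SD 1.7024). The part of array spread in this split was not tested. Group means were 7.76 ± 0.28 in HFD and 7.71 ± 0.33 in NCD (SD, n = 4 each), which differ by 0.05 (interval -0.31 to 0.41, adjusted p = 0.973). The sign turned when HFD 3, NCD 1 or NCD 4 was left out. Without NCD 2 and NCD 3, which leaves only NCD arrays of the low set, the difference was 0.33 (interval -0.04 to 0.69, limma adjusted p = 0.763). The SD of this gene over the 8 arrays, 0.28, was larger than its diet difference, as was so for every member but Ppargc1a.

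Nrf1 here is the nuclear respiratory factor, not the stress factor gene Nfe2l1 that has shared its name. It was 6.17, 6.32, 6.23 and 5.91 on HFD 1 to 4, against 6.10, 6.31, 6.11 and 6.23 on NCD 1 to 4. Only HFD 4 fell outside the range of the NCD arrays by more than 0.01. The difference was -0.03, the smallest of the 10 in size, with an interval from -0.28 to 0.22 (adjusted p = 0.980), and the sign turned without HFD 4 or NCD 2. Rxra encodes RXR alpha, the dimer partner of the PPARs. It was 6.86, 6.86, 7.12 and 7.09 on HFD 1 to 4, against 6.93, 6.97, 7.46 and 6.88 on NCD 1 to 4. NCD 3 stood well above the rest, and the other 7 arrays of both groups were mixed. The difference was -0.08 with an interval from -0.37 to 0.22 (adjusted p = 0.935), and 0.06 without NCD 3.

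The windows before the start sites were also searched for the letters that nuclear receptors of this family bind. The 16 RefSeq windows covered Ppargc1a, Pprc1, Ppara, Ppard, Pparg, Esrra, Esrrg, Nrf1 and Rxra, several genes having more than 1 start. No window held the ERR element TCAAGGTCA (0.387% of all windows) or the direct repeat that PPAR and RXR dimers bind, a pair of AGGTCA half-sites with any 1 base between them (0.0335% of all). The half-site AGGTCA, which is contained in both, was found in 4 of the 16 windows, of 3 genes, and in 14% of all windows. These stretches are shown to let the letters around each half-site be compared. Capitals mark the half-site on either strand, and each stretch holds up to 20 bases on both sides. Only the stretch of the downstream Pparg start reaches its start site and is cut short there. They lie at chr19:46056406-46056451 (Pprc1), chr6:115361096-115361141 and chr6:115362320-115362348 (Pparg, from different starts), and chr2:27709185-27709230 and chr2:27709224-27709269 (Rxra, from 1 start, overlapping). All are on the plus strand of GRCm38.p6.
Pprc1: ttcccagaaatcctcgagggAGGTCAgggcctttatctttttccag
Pparg, upstream start: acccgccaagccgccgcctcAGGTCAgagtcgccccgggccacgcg
Pparg, downstream start: tttatataagggacgcgaggAGGTCAaga
Rxra, farther half-site: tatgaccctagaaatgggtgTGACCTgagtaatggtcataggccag
Rxra, nearer half-site: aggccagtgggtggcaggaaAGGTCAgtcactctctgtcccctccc

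In the file's coordinates the clusters of the other members span chromosome 19 from 46131071 to 46147405 (Pprc1), chromosome 17 from 28369699 to 28438414 (Ppard) and chromosome 6 from 115310969 to 115440419 (Pparg). Those of Esrra and Esrrg span chromosome 19 from 6985467 to 6996308 and chromosome 1 from 189821738 to 190038763. Nrf1 spans chromosome 6 from 29997988 to 30103458, and Rxra chromosome 2 from 27532721 to 27618839.

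Across arrays the members varied together in part. NCD 3 was the highest array for 8 of the 10 genes, the exceptions being Ppard (HFD 4) and Nrf1 (HFD 2). NCD 3 also had the widest spread of values over all clusters (SD 1.82, against 1.69 to 1.79 elsewhere). It was the highest array for 22% of all genes and for 41.7% of the 7629 genes at or above the olfactory receptor level. The mean over the 10 members was 7.39, 7.40, 7.49 and 7.50 on HFD 1 to 4, against 7.395, 7.53, 7.74 and 7.49 on NCD 1 to 4. The part of array spread in the members' differences was not tested beyond the fits with arrays rescaled or left out. With equal median and spread, Ppargc1a stood at -0.11 and Ppargc1b at -0.26, neither past the test.

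**Figure D3:**
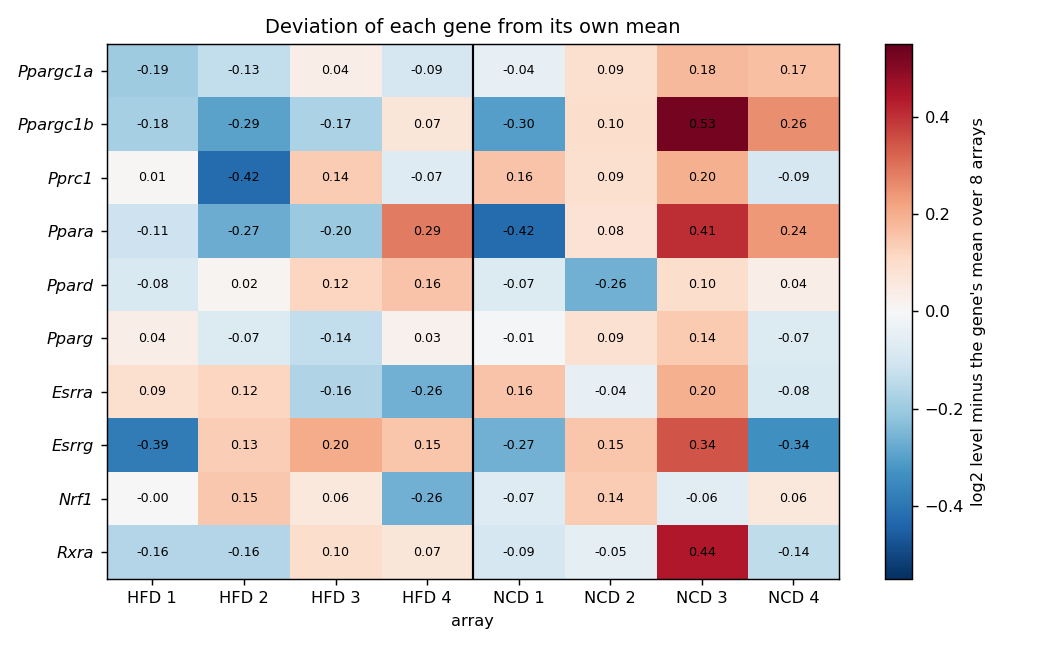
Log2 level of each gene on each array minus that gene's mean over the 8 arrays, with HFD arrays left of the black line and NCD arrays right of it. NCD 3 is the highest array in 8 of 10 rows, and Esrrg is low on HFD 1, NCD 1 and NCD 4.

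Skeletal muscle RNA stood out on 1 array of each diet. Muscle also expresses Ppargc1a, Ppara and Esrrg, and all 16 fixed muscle markers were higher on both HFD 3 and NCD 1 than on any other array. The markers' mean was 9.52 on HFD 3 and 8.84 on NCD 1, and 5.52 to 5.94 on the other 6 arrays. Of these markers the rule named Actn3, Mybpc2 and Tnnc2, all of fast muscle fibres, with differences of 0.45, 0.47 and 0.42 between the diets, none past the test. No member had its highest value on HFD 3 or NCD 1, where NCD 3 was the highest array for 8 of the 10. Among the HFD arrays alone, HFD 3 was highest for Ppargc1a (9.54), Pprc1 (5.39), Esrrg (7.94) and Rxra (7.12), but not for the other members. NCD 1 was the highest NCD array for no member. The part of muscle RNA in the members' values was not tested. Without both arrays, Ppargc1a differed by -0.28 (interval -0.57 to -0.001, adjusted p = 0.590) and Ppargc1b by -0.43 (interval -0.76 to -0.10, adjusted p = 0.455). In that limma fit these 2 of 10 members had an unadjusted p under 0.05 (0.0493 and 0.0131), beside 8.44% of all genes. There 9 of 10 members were lower in HFD, beside 50.5% of all genes. For Ppargc1a, HFD 3 was the highest HFD array and NCD 1 (9.46) the lowest NCD array. For Ppargc1b, NCD 1 (7.07) was the lowest of all arrays. Leaving these arrays out thus widened both differences by itself, so those p-values are no further result.

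Markers checked the labelled tissue. Ucp1, the brown fat uncoupling protein, chosen here for its role, stood at 12.85 in HFD and 12.90 in NCD (difference -0.05, interval -0.27 to 0.17). Among 12 brown adipocyte markers, 5 means were higher and 7 lower in HFD, with a median of -0.035. With equal median and spread, 8 were higher and the median was 0.098. The test called 1 of the 12, beside 0.142% of all genes. This was Elovl3, a fatty acid elongase gene, at 5.82 ± 0.38 in HFD, against 7.20 ± 0.39 in NCD (SD, n = 4 each, limma adjusted p = 0.00673). On the 6 arrays left without NCD 2 and NCD 3 the difference was -1.0475 (interval -1.49 to -0.61, adjusted p = 0.149), against -1.39 on all arrays, and the HFD mean lay under the olfactory receptor level. White adipocyte markers had 0 of 8 members past the test, 3 means higher and 5 lower. The smallest p was that of Lep, the leptin gene, at 9.63 in HFD and 8.73 in NCD (adjusted p = 0.308). Lep passed, at 1.47, when NCD 2 and NCD 3, its highest NCD arrays (9.34 and 9.25), were left out (limma adjusted p = 0.0256). Nnat, a membrane protein gene, differed by 0.43 and Hoxc8, a body position gene, by -0.56. Macrophage markers (0 of 10 past, 7 means higher and 3 lower) had a median difference of 0.19, and the 3 of smallest p were Cd68 at 0.37, Emr1 at 0.38 and Ccr2 at 0.26. Endothelial markers (0 of 10 past, 8 means higher and 2 lower) had a median of 0.12, with the smallest p for Flt1, Pecam1 and Tek at 0.27, 0.30 and 0.27. Progenitor and fibroblast markers (0 of 10 past, 9 means higher and 1 lower) had a median of 0.12, with the smallest p for Pdgfra, Ly6a and Col1a1 at 0.28, 0.29 and 0.155. The list mean over white adipocyte markers ran from 6.33 to 6.58 on HFD arrays and from 6.27 to 6.53 on NCD arrays. That of macrophage markers, 6 of which lay under the olfactory receptor level, ran from 6.31 to 6.66 on HFD arrays and from 6.19 to 6.63 on NCD arrays. For endothelial markers it ran from 7.98 to 8.28 on HFD arrays and from 7.86 to 8.14 on NCD arrays, and for progenitor and fibroblast markers from 7.22 to 7.49 on HFD arrays and from 7.05 to 7.41 on NCD arrays. These lists thus overlapped between the diets, and their part in the members' values was not tested.

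Partner and target genes were described from 5 fixed lists, and 0 of their 140 measured members passed the test in either direction, beside 0.142% of all genes. In limma 14 of the 140 had an unadjusted p under 0.05, which is 10% of them beside the 7.24% of all genes, and the methods' t-test called 0 after adjustment. The groups did not overlap for 11 of the 140, beside 3.83% of all genes. Most genes named below were picked for a small p, which favours groups without overlap, so their separation is no further result. When limma's variance prior was given a trend and made robust, 2 of the 140 passed, both lower: Agpat2 (adjusted p = 0.0153) and Plin2 (adjusted p = 0.0359). Over all genes 70 passed under that setting (0.322%), 60 of them lower and 10 higher. The counts of lower means below stand beside 52.5% of all genes lower in HFD on all arrays. That share was 55% with equal median and spread and 48.8% with cyclic loess. It was 53.7% without NCD 2 and NCD 3, and 50.5% without NCD 1 and HFD 3. NCD 3 and NCD 2 had the highest list means of the partner, PPAR gamma, ERR and NRF1 lists. Their removal thus moved the differences of those lists upward by itself.

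Among 28 partner receptors and coregulators, 20 means were lower and 7 higher in HFD, with a median of -0.045, which turned to 0.065 without NCD 2 and NCD 3 and to 0.0034 with cyclic loess. Cdk5, a kinase known in mouse to phosphorylate PPAR gamma, had the smallest p. It was 6.57, 6.45, 6.31 and 6.57 on HFD 1 to 4, against 6.72, 7.00, 6.72 and 6.77 on NCD 1 to 4. The groups did not overlap, and the difference was -0.33 (interval -0.57 to -0.08, adjusted p = 0.520). Twist1, a repressor that binds PGC-1 alpha in mouse brown fat, differed by -0.23 (adjusted p = 0.711). Prkaa2, a catalytic subunit of the AMP-activated kinase, which acts on PGC-1 alpha in muscle, differed by -0.245 (adjusted p = 0.813). Prdm16, the brown fat partner of PGC-1 alpha, chosen for its role, differed by -0.13 (interval -0.39 to 0.13).

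Among 32 PPAR target genes of fatty acid use, 21 means were lower and 11 higher, with a median of -0.03. Plin2, a lipid droplet coat protein, was 10.53, 10.61, 10.67 and 10.72 on HFD 1 to 4, against 10.95, 11.10, 11.30 and 10.92 on NCD 1 to 4. The groups did not overlap, and the difference was -0.435 (interval -0.68 to -0.19, adjusted p = 0.277). Ucp3, a mitochondrial carrier related to Ucp1, also did not overlap, at -0.49 (interval -0.82 to -0.16, adjusted p = 0.422). Cpt1a, the liver-type enzyme that admits fatty acids to mitochondria, went the other way without overlap. It was 6.63, 6.64, 6.93 and 6.65 on HFD 1 to 4, against 6.40, 6.29, 6.60 and 6.21 on NCD 1 to 4 (difference 0.34, interval 0.08 to 0.60, adjusted p = 0.544). Cpt1b, the form used in brown fat and muscle, chosen for its role, differed by 0.075 (interval -0.19 to 0.34). Genes of this list thus leaned both ways, and the list's median turned to 0.0053 with equal median and spread.

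Among 26 PPAR gamma target genes of adipocytes, 18 means were lower and 8 higher, with a median of -0.06 that turned to 0.04 with equal median and spread, to 0.0089 with cyclic loess and to 0.04 without NCD 2 and NCD 3. Agpat2, an acyltransferase of triglyceride assembly, was 9.90, 10.09, 10.04 and 10.16 on HFD 1 to 4, against 10.36, 10.86, 10.61 and 10.58 on NCD 1 to 4. The groups lay apart by -0.555 (interval -0.82 to -0.29, adjusted p = 0.134). Gpd1, which makes glycerol 3-phosphate, differed by -0.43 (adjusted p = 0.331) without overlap, and Slc27a1, a fatty acid transporter, by -0.305 (adjusted p = 0.625). Fabp4 and Adipoq, fat cell genes chosen for their role, differed by 0.05 and by -0.01.

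Among 35 ERR and PGC-1 target genes of mitochondria, 33 means were lower in HFD and 2 higher, with a median of -0.13, beside -0.01 over all genes. All but 1 of the 35 lay at or above the olfactory receptor level. Of the 7629 genes at or above that level, NCD 3 was the highest array for 41.7% and NCD 2 for 17.8%. All genes, many of them dimmer, are thus an unlike comparison for this list. Rescaling to equal median and spread moved the list's median to 0.0096, with 17 lower and 18 higher. Cyclic loess left 29 lower and 6 higher (median -0.06), and removal of NCD 1 and HFD 3 left 34 lower and 0 higher (median -0.16). Removal of NCD 2 and NCD 3 left 23 lower and 12 higher (median -0.03). Sdhd of complex II was 8.82, 8.97, 8.85 and 9.07 on HFD 1 to 4, against 9.14, 9.55, 9.68 and 9.23 on NCD 1 to 4. The groups did not overlap, and the difference was -0.47 (interval -0.76 to -0.19, adjusted p = 0.320). Mdh1, the cytosolic malate dehydrogenase, differed by -0.35 (adjusted p = 0.472) and Cox6c of complex IV by -0.21 (adjusted p = 0.712), both without overlap. Among 19 genes listed for NRF1 action and mitochondrial genome upkeep, 13 means were lower and 5 higher, with a median of -0.0125. That median turned to 0.04 with cyclic loess, to 0.0073 with the arrays rescaled, and to 0.035 when NCD 2 and NCD 3 were left out. The list also held the stress factor gene Nfe2l1, which differed by 0, and Nfe2l2, at 0.03, and its counts include them. Tfb1m, which methylates mitochondrial ribosomal RNA, was 6.56, 6.78, 6.89 and 7.10 on HFD 1 to 4, against 7.40, 7.24, 7.55 and 7.12 on NCD 1 to 4. The groups touched without overlap, and the difference was -0.495 (interval -0.78 to -0.21, adjusted p = 0.291). Alas1, the first enzyme of heme synthesis, differed by -0.40 (adjusted p = 0.443) and Tfb2m, a mitochondrial transcription factor, by -0.33 (adjusted p = 0.625). Tfam, which packs mitochondrial DNA and was chosen for its role, differed by -0.025 (interval -0.41 to 0.36).

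**Figure D4:**
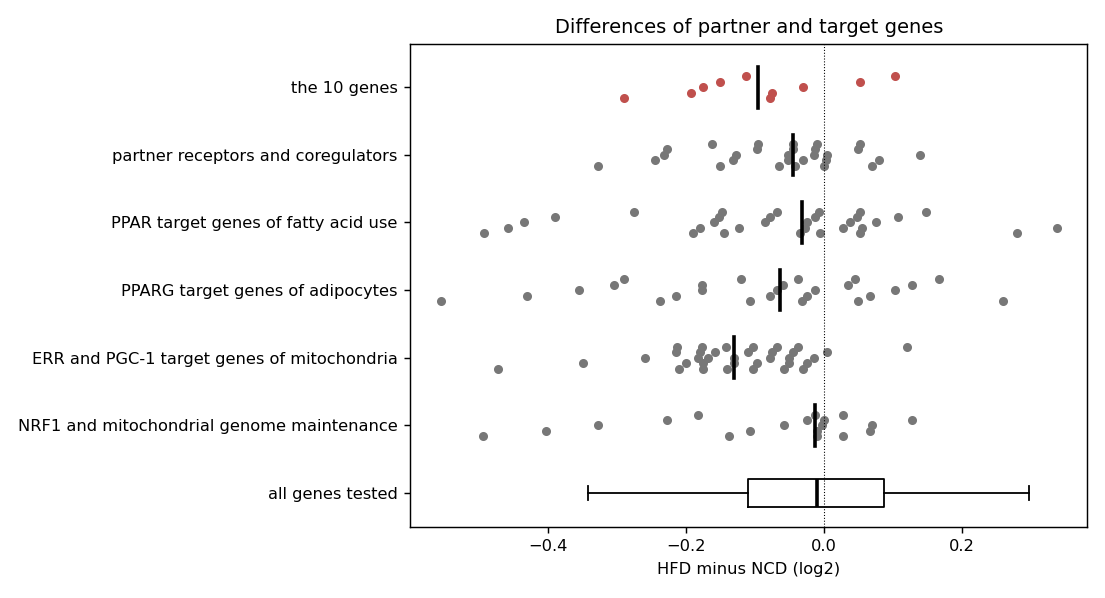
Difference in log2 level, HFD minus NCD, for the 10 genes (red points) and for the genes of 5 partner and target lists (grey points), with black bars at each median; point height within a row has no meaning. The box gives the quartiles of all 21759 genes and its whiskers their central 95%, from -0.34 to 0.30, and the 10 genes lie within the whiskers.

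The genes whose levels over the 8 arrays were most like each member were found by Pearson correlation among 7629 genes at or above the olfactory receptor level with an SD over the arrays of at least 0.1. That left 7082 candidates for a member that was itself among them and 7083 otherwise. Each correlation is the highest of that many, over 8 arrays that share their array spread, so it is a description without a p. For Ppargc1a the nearest were Rrm2b (r = 0.967, rho = 1) and Fam107b (r = 0.962, rho = 0.976). For Ppargc1b they were Ttc17 (r = 0.990, rho = 0.958) and Phospho1 (r = 0.977, rho = 0.850). Both coactivators kept r of at least 0.93 with these genes when the 2 arrays farthest from the member's median were left out.

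For Ppara the nearest genes were Rhoc (r = 0.981, rho = 0.958) and Slc22a2 (r = 0.975, rho = 0.952), and for Ppard they were Fgfr1 (r = 0.931, rho = 0.881) and Ppm1k (r = 0.924, rho = 0.952). Pparg lay nearest to Mrps12 (r = 0.984, rho = 0.970) and Ccdc127 (r = 0.968, rho = 0.994), and Rxra to Zmynd8 (r = 0.993, rho = 0.957) and Gusb (r = 0.982, rho = 0.898). Esrrg, with its low values on HFD 1, NCD 1 and NCD 4, lay nearest to Rgs7 (r = 0.975, rho = 0.982, and r = 0.954 without HFD 1 and NCD 4) and Rfwd3 (r = 0.974, rho = 0.922). Of the dim members, Pprc1 lay nearest to Plcb1 (r = 0.952, rho = 0.934) and Utp11l (r = 0.922, rho = 0.810), and the last fell to r = 0.563 without HFD 2 and NCD 3. Esrra lay nearest to Zbtb44 (r = 0.944, rho = 0.881) and Zfp457 (r = 0.943, rho = 0.952), and Nrf1 to Mir194-2 (r = 0.923, rho = 0.831) and Egr3 (r = 0.898, rho = 0.731). None of these 20 genes passed the test for diet, the smallest adjusted p being 0.551 (Rrm2b).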

How the data were processed

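The deposited values are log2 intensities that, per the design text, the authors had quantile normalized in Affymetrix Power Tools (also in the submitters' processing notes). How probes were summarized, the background step and the build are not stated. The authors' table also holds a deposited p-value and a signed fold change per cluster, the latter handled here as a score. Both deposited tables held equal values (0 differences).

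The brightest of a gene's clusters by mean over 8 arrays stood for it, so 25254 clusters gave 21759 genes. HFD minus NCD was fitted with limma 3.58.1 in R 4.3.3 (lmFit, eBayes, prior of 8.87 degrees of freedom), two-sided, adjusted by Benjamini-Hochberg over all genes, threshold 0.05. Errors beside means are SDs, and intervals are 95% from the moderated fit. The number of arrays, not a depth, limits precision. The step was tested on simulated data.

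Members, lists and the olfactory receptor level were chosen with earlier results of these data known. Named were all 10 members, each list's genes past the test or otherwise its 3 of smallest p, and the 2 genes most correlated with each member. Genes named for their role were chosen after their values were seen. All 10 members matched RefSeq (GRCm38.p6) by transcript, on the file's chromosome; Ppargc1b's promoter was not used here. Listed genes without a matching symbol were Perm1, Twink, Wdnm1 and Adgre1. Alternatives were array removal, the replicate number as a block, other variance models, the methods' t-test, other scalings, a filter on dim genes, the mean of clusters and the second table.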

Additional observations from a re-analysis of the deposited data

Results flagged for a closer look

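Within groups of 4 arrays, 14 of 108 groups examined held an array far from the other 3 by Dixon's ratio of gap to range. Chance alone flags about 1 in 20 independent groups. These groups were not independent, as list means stood beside their own genes and muscle genes shared the same arrays. Genes such as Ucp3 and Cpt1a had also been picked for a small p, so that rate is no measure for the count of 14. Among the members, Esrrg on HFD 1 was 7.35, with the nearest HFD array at 7.87, and Rxra on NCD 3 was 7.46, with the nearest NCD array at 6.97. The mean of the PPAR target genes of fatty acid use was 9.05 on NCD 3, with the next NCD array at 8.8. Skeletal muscle markers averaged 9.52 on HFD 3 and 8.84 on NCD 1, with the next arrays of those groups at 5.78 and 5.94. Single muscle genes stood out on the same arrays: Actn3 at 8.41 on HFD 3 and 7.01 on NCD 1, Tnnc2 at 10.76 on HFD 3 and 9.75 on NCD 1, and Mybpc2 at 8.57 on HFD 3. Ucp3 was low on HFD 2 (7.29), Cpt1a high on HFD 3 (6.93), Lep low on HFD 1 (9.52, against 9.65 to 9.67 on the other HFD arrays) and Hoxc8 high on NCD 2 (7.54).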

How the results depend on the processing

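In all 19 alternatives run, 0 of the 10 members passed the adjusted threshold, the smallest adjusted p being 0.352. The signs of Ppargc1a, Ppargc1b, Pprc1, Ppard and Esrra held in every alternative that tested them, and of 187 member values 176 kept their sign. Without 1 array, Esrrg ranged from -0.0508 to 0.19, Nrf1 from -0.0842 to 0.0525 and Rxra from -0.1375 to 0.0558. Without NCD 2 and NCD 3, Ppara was 0.0175, Pparg 0.0025 and Rxra 0.0775; without NCD 1 and HFD 3, Esrrg was -0.0867; with equal median and spread, Pparg was 0.0337. NCD 2 and NCD 3 were the arrays of highest member means, so the fit without them is no neutral check. The cause of these changes was not tested. Genes past the threshold over the whole table numbered 31, and 21 to 38 without 1 array, 3 without NCD 2 and NCD 3 (6 arrays), 70 with a variance trend and robust prior, 0 with the methods' t-test and 55 among the 7629 genes above the olfactory receptor level, a filter that leaves fewer genes to adjust over and drops Pprc1, Esrra and Nrf1. Same-numbered arrays did not deviate together (correlations from -0.165 to 0.0025). These correlations also hold array-wide differences, such as muscle RNA on HFD 3 and NCD 1, so they cannot exclude a pairing by number. With the replicate block 36 genes passed and 0 members. Signal over background limits what can be said of Pprc1, Esrra and Nrf1.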
